A study of Mus musculus with 8 samples.

Results

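The SLC25 genes encode the mitochondrial carrier family, membrane proteins that pass nucleotides, metabolites, cofactors and iron across the inner membrane of the mitochondrion. The genes described here are all rows of the count table whose name is Slc25a followed by a number, which gave 47 of 25655 rows. Gastrocnemius muscle of male wild-type (WT) mice was sampled at day 4. One group of 3 libraries came from mice made septic with cecal slurry, a suspension of gut contents, and the other group of 5 libraries came from controls given 10% glycerol. All mice shared genotype, sex and day, and strain, age and the pooling of animals are not stated in the labels. RNA was read with QuantSeq, a method that sequences near the 3′ end of polyadenylated transcripts, so a gene's count follows the number of transcripts and not their length.

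Mitochondrial carriers are small proteins built of repeated units, most of which exchange a substrate on one side of the inner membrane for another on the other side. In muscle the most used exchange is that of ADP for ATP, which delivers the product of oxidative phosphorylation to the contractile apparatus, and the phosphate carrier supplies the other substrate of ATP synthase. Other carriers move reducing equivalents into the matrix through the malate-aspartate shuttle, bring in acylcarnitines and amino acids as fuel, and supply NAD, coenzyme A, folate and iron to matrix enzymes.

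Slc25a4 and Slc25a5, the ADP/ATP carriers of muscle and of proliferating cells, shared 692 of 894 coding bases (77.4%) in GENCODE transcripts of the GRCm38 build. Their last 60 coding bases, the coding part nearest to where the reads start, are given 5′ to 3′ because the share of reads between these genes is one of the results. Capitals mark the 12 bases at which they differ.
Slc25a4: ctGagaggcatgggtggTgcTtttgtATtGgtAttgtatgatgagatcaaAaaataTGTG
Slc25a5: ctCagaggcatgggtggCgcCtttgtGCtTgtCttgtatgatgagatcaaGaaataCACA
Beyond the coding part they were less alike. The longest identical run in the last 500 bases of both transcripts was 8 bases, and over all 465 pairs of the 31 tested carriers it was 15 bases.

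Total counts were 3337851 to 3765726 in septic libraries and 3086277 to 4016329 in control libraries. Reads of mitochondrially encoded genes took 14.5% ± 2.19 of all reads in sepsis and 23.6% ± 1.89 in controls (SD, n = 3 and 5). In a chi-square comparison of the counts, septic libraries differed more among themselves (11 to 26.3 per degree of freedom) than controls did (2.04 to 6.86), so no libraries were merged. Whether each library is a different mouse is not stated in the labels, and the p-values therefore describe the spread between libraries, which may be technical. Markers fixed for muscle fibres were abundant and all 6 were lower in sepsis, with summed levels of 58861 to 82830 CPM against 128517 to 150837 CPM in controls. Summed markers of neutrophils were 60.6 to 137 CPM in sepsis against 0.301 to 1.08 CPM in controls, with Mpo and Elane at 0 in every library, and those of macrophages were 206 to 256 CPM against 47.4 to 104.1 CPM (3 of 3 and 3 of 5 tested markers higher). Fibroblast markers were 256 to 366 CPM against 804 to 1469 CPM (5 of 5 lower), endothelial markers 119 to 171 CPM against 115 to 121 CPM (3 of 5 higher, 1 lower), and cycling-cell markers 9.84 to 40.3 CPM against 1.91 to 8.605 CPM (1 of 1 higher). Erythroid markers summed to 14.3 to 89.6 CPM in sepsis against 44.0 to 954 CPM in controls (1 of 4 lower). Adipocyte markers summed to 19.1 to 40.2 CPM against 23.8 to 48.3 CPM (0 of 3 past the threshold in edgeR, Ucp1 at 0), and Schwann cell markers to 27.7 to 39.0 CPM against 56.1 to 133 CPM (3 of 4 lower). Several of these markers passed the filter on low counts only through the group where they are high. Among them are all 3 of neutrophils, 3 of the 5 of fibroblasts and the 1 of cycling cells. The part of these cell types in the carrier results was not tested, and in whole muscle fewer cells of a type and less RNA per cell cannot be told apart.

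The design text states the effect of sepsis on muscle as its aim, and the question here is which carrier transcripts differed at day 4. Slc25a4, which exports ATP, and the NADH shuttle carriers Slc25a11 and Slc25a12 were lower in septic muscle, while the iron carrier Slc25a28, the pyrimidine nucleotide carrier Slc25a33, the glycine carrier Slc25a38 and the little-known Slc25a34 were higher. Of the 47 genes 31 had enough reads to be tested, and 27 of these passed the filter (2.77 CPM of the library total in 3 libraries) in both groups. Slc25a23, Slc25a29 and Slc25a42 passed through control libraries only and Slc25a1 through a mix. Of the 11 lower carriers given next, 2 (Slc25a23 and Slc25a42) were therefore tested only through the group where they are high. The quasi-likelihood F test of edgeR, adjusted by Benjamini-Hochberg over all 9810 genes tested, called 7 carriers higher and 11 lower at a threshold of 0.05, and 13 did not pass. Over all genes tested 25.2% were called higher and 25.2% lower, 50.4% in either direction, so the 58.1% of tested carriers called is near the background. In 18 of the 31 carriers the septic and control libraries stood apart without overlap, against 47.5% of all genes tested. DESeq2 called 7 carriers higher and 12 lower of 38 with an adjusted p, against 17.6% and 16.9% of all genes. At least 2-fold changes were found in 4 carriers upward and 9 downward, against 11.8% and 14.2% of all genes tested. The median log2 fold change was -0.28 over the 31 carriers and 0.01 over all genes, and the median absolute value was 0.67 and 0.58.

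**Figure D1:**
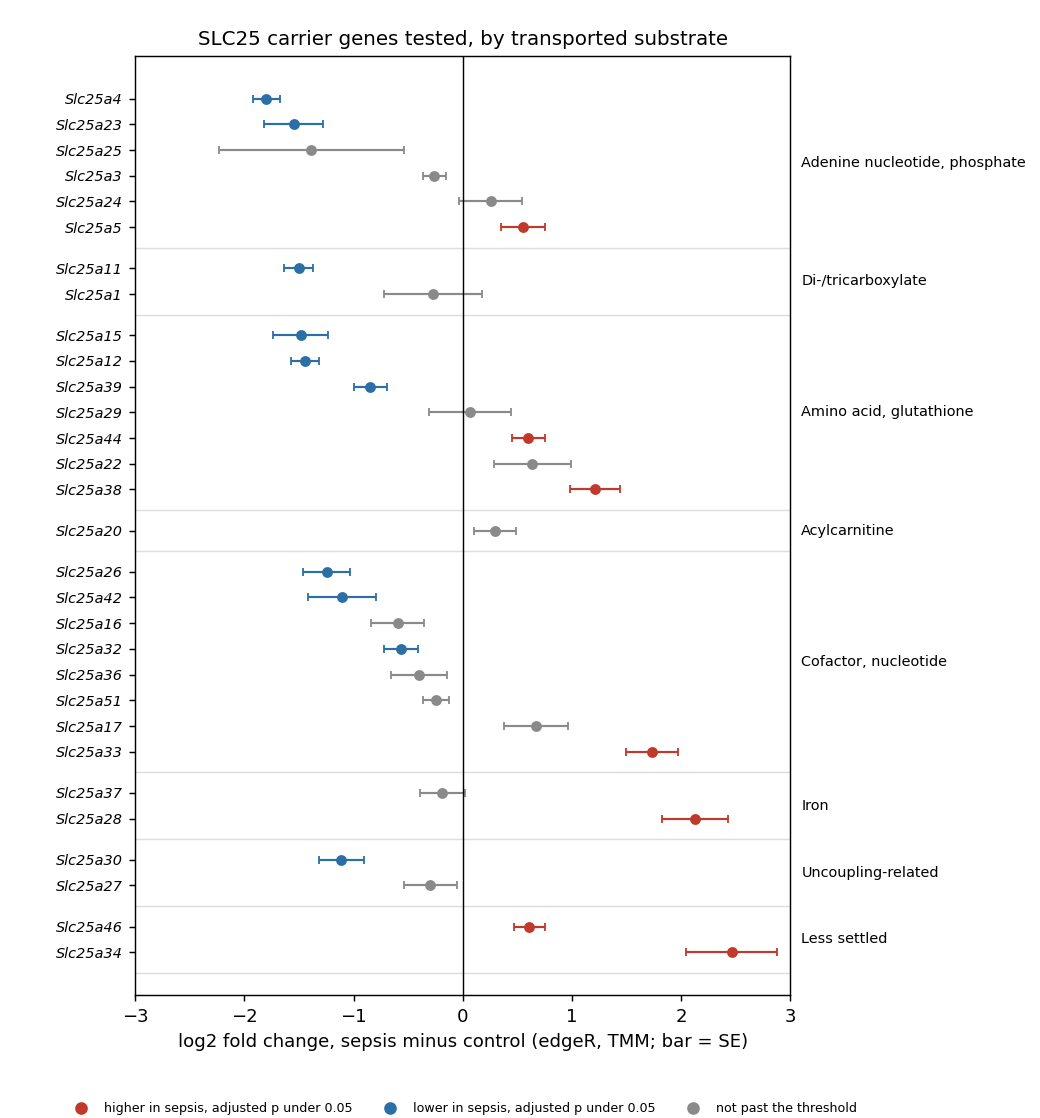
Log2 fold change of sepsis minus control (x axis, bars are SE) for 30 of the 31 tested SLC25 genes, grouped by the substrate they carry. Red points passed the threshold upward (7 genes), blue points downward (10 genes) and grey points did not pass (13 genes). The adenine nucleotide and phosphate, amino acid, cofactor and iron groups hold genes on both sides of 0.

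The balance of directions depends on scaling. With library totals in place of TMM, trimmed means of M values, the median of all genes was 0.42 higher, 10 carriers were called higher and 8 lower, and 43.4% and 14.1% of all genes were. The median of the carriers stood 0.29 below that of all genes with either scaling. CPM below are TMM-scaled, a log2 fold change is that of sepsis relative to control, and SE is the absolute log2 fold change divided by the root of the F statistic. At this depth 1 read was worth 0.235 CPM in an average septic library and 0.315 CPM in an average control library.

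The family as a whole took 0.282% ± 0.0176 of all reads in sepsis and 0.505% ± 0.0185 in controls (SD, n = 3 and 5). These are shares of library totals without TMM scaling, and by that measure the difference lay in Slc25a4. Without Slc25a4 the remaining carriers took 0.139% ± 0.00495 and 0.131% ± 0.00589. With TMM scaling 1 read counted for less in septic libraries than in controls, as given above. On the TMM scale the remaining carriers summed to less in every septic library than in every control. Slc25a4 made up 50.5% ± 1.93 of the family's reads in sepsis and 74.0% ± 1.36 in controls, and Slc25a3 17.3% ± 0.649 and 8.73% ± 0.262.

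**Figure D2:**
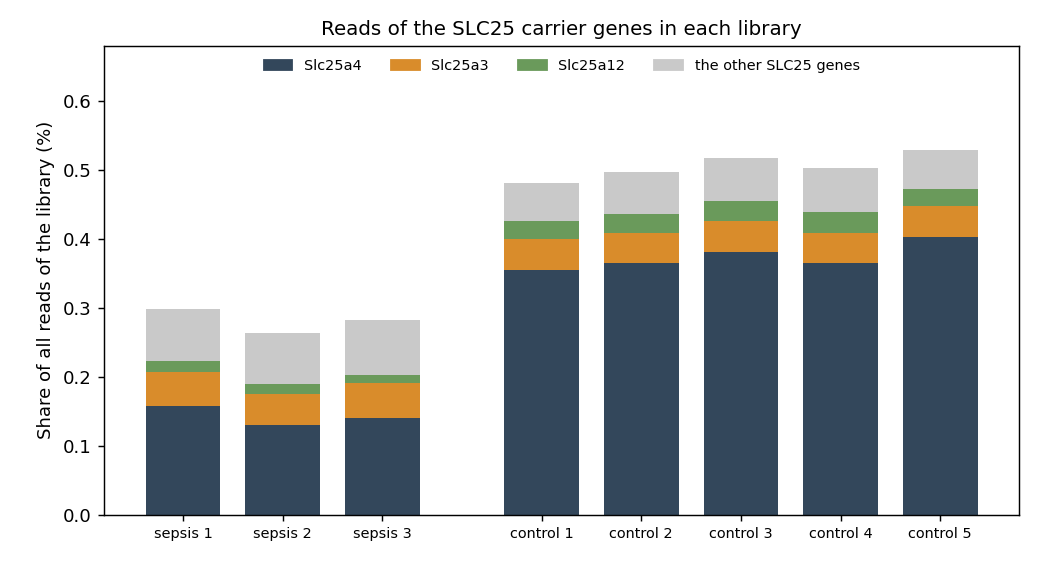
Share of all reads of a library (y axis, percent of total counts) taken by SLC25 genes in the 3 septic and 5 control libraries (x axis), stacked by gene. The dark segment, Slc25a4, is shorter in every septic library, while the other segments together are near 0.14% in sepsis and 0.13% in controls. The shares are not TMM-scaled, and on the TMM scale the other segments together are lower in every septic library.

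The ADP/ATP carrier of muscle, Slc25a4 (ENSMUSG00000031633), had the most reads of the family. It stood at 1398, 1007 and 1201 CPM in septic libraries 1 to 3, against 3963, 4038, 4318, 4073 and 4526 CPM in control libraries 1 to 5. All septic values lay far below the lowest control. It fell 3.48-fold; the log2 fold change was -1.80 (SE 0.12), with an adjusted p of 1.49e-07 by edgeR. Slc25a5 (ENSMUSG00000016319), the ADP/ATP carrier that predominates in dividing cells, moved the other way but far less. It had 36.4, 31.7 and 24.9 CPM in septic libraries against 23.3, 24.2, 17.2, 26.0 and 14.98 CPM in controls, so septic library 3 lay below control 4. Its log2 fold change was 0.55 (SE 0.20) at an edgeR adjusted p of 0.0331. That call was lost without septic library 1 or 2 or control 3 or 5, at adjusted p-values of 0.138, 0.065, 0.0839 and 0.0759, and in limma-voom with weights per group at 0.0618. The 1 tested cycling-cell marker was also higher in sepsis, but it passed the filter only through septic libraries, where it is high. That marker was highest in septic library 2, at 14.3 CPM, and Slc25a5 in septic library 1. The part of cycling cells in the Slc25a5 result was not tested. Slc25a31, the ADP/ATP carrier of the male germ line, had no read.

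As a share of the reads of both genes, which does not depend on scaling, Slc25a4 held 97.5%, 96.9% and 97.97% in septic libraries and 99.4%, 99.4%, 99.6%, 99.4% and 99.7% in controls. The groups did not overlap, and the difference of -2.03 percentage points had p = 0.0179 in a two-sided exact permutation test, the smallest value that 56 splits allow. Over 7 such paralogue shares the adjusted p was 0.0251. Slc25a4 thus remained the source of nearly all ADP/ATP carrier reads in both groups.

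Slc25a3 (ENSMUSG00000061904), the phosphate carrier, had the second highest count. It stood at 444, 350 and 438 CPM in sepsis against 491, 471, 507, 490 and 505 CPM in controls. Every septic library was below every control, by little. The log2 fold change of -0.26 (SE 0.11) missed the threshold at an edgeR adjusted p of 0.0535. It passed without septic library 1 or 3, at 0.0317 and 0.0267, with upper-quartile factors at 0.0139 and in limma-voom at 0.0499, and with library totals alone it was 0.15 at 0.134.

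The calcium-regulated ATP-Mg/phosphate carriers adjust the adenine nucleotide pool of the matrix. Slc25a23 was at 2.66, 2.94 and 2.05 CPM in sepsis against 5.83, 7.85, 7.23, 8.68 and 8.28 CPM in controls. It fell without overlap of the groups, with -1.55 (SE 0.27) on the log2 scale and an edgeR adjusted p of 3.80e-04. It had entered the test through control libraries only, and with no expression filter the adjusted p was 2.79e-04. The antisense gene Gm17168 lies within 500 bases of its 3′ end in GENCODE, on the other strand. Slc25a25, the family member known in mice for heat production and endurance of muscle, varied widely within controls. It had 26.3, 10.1 and 8.45 CPM in sepsis, and in controls 6.66 and 11.5 CPM in libraries 1 and 5 but 48.0, 55.7 and 72.3 CPM in libraries 2, 3 and 4. The log2 fold change of -1.39 (SE 0.85) did not pass, at an edgeR adjusted p of 0.216. Without septic library 1 it was -2.05 and also did not pass, at 0.171. Slc25a24 had 6.12, 8.82 and 8.90 CPM in sepsis against 10.8, 5.02, 4.82, 6.87 and 5.74 CPM in controls, and its 0.25 (SE 0.29) did not pass. The related Slc25a41 had 1 read in all.

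All 4 tested genes of mitochondrial high-energy phosphate handling fell. For this and each list or group of carriers counted below, 25.2% of all genes tested were called lower and 25.2% higher by edgeR. The mitochondrial creatine kinase gene Ckmt2, whose product uses ATP exported by Slc25a4, stood at 132 ± 52.5 CPM in sepsis and 503 ± 35.4 CPM in controls (SD, n = 3 and 5) and fell 3.81-fold. The adenylate kinase gene Ak3 fell 2.56-fold, and Ppif, which encodes cyclophilin D of the permeability transition, 1.81-fold. Among 19 tested genes of other mitochondrial membrane transporters 12 fell and 7 did not pass, and 1 of the 12 was tested through controls only. They include the outer membrane channel genes Vdac1 and Vdac3, down 1.64-fold and 1.82-fold, and Micu3, a regulator of calcium uptake, down 2.18-fold.

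Slc25a11 and Slc25a12, the carriers of the malate-aspartate shuttle with most reads, fell. This shuttle brings the electrons of cytosolic NADH into the matrix by exchanging malate for oxoglutarate and aspartate for glutamate. Slc25a11 (ENSMUSG00000014606), the oxoglutarate/malate carrier, was at 45.2, 41.6 and 31.0 CPM in sepsis against 107, 111, 113, 111 and 116 CPM in controls. Slc25a12 (ENSMUSG00000027010), the aspartate/glutamate carrier of muscle and brain, had 136, 106 and 97.7 CPM against 300.1, 311, 315, 332 and 278 CPM. In both genes the groups stood well apart and the controls were tightly grouped. Slc25a11 fell 2.84-fold, by edgeR at -1.50 (SE 0.14) on the log2 scale with an adjusted p of 1.73e-06. For Slc25a12 the decrease was 2.72-fold, at -1.44 (SE 0.13) with an edgeR adjusted p of 1.48e-06.

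Slc25a13, the aspartate/glutamate carrier of liver, had 12 reads in sepsis and 12 in controls and was not tested. Slc25a12 held 99.4%, 99.2% and 98.8% of the reads of the pair in septic libraries and 99.7%, 99.7%, 99.7%, 99.7% and 100% in controls, a difference of -0.605 points at an exact permutation p of 0.0179, adjusted 0.0251. That share rests on 0 to 5 reads of Slc25a13 per library.

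Of the 6 NADH shuttle enzyme genes 5 fell. The malate dehydrogenase genes Mdh1 and Mdh2 fell 2.74-fold and 2.19-fold and the mitochondrial aminotransferase gene Got2 1.48-fold, while the cytosolic Got1 had 0.36 (SE 0.20) and did not pass. The glycerol phosphate shuttle, which needs no carrier of this family, also had lower transcripts, with Gpd2 at -1.67 (SE 0.14) and Gpd1 at -4.00 (SE 0.14) on the log2 scale. The other carriers of organic acids were near the detection limit: the citrate carrier Slc25a1 had -0.28 (SE 0.45), the dicarboxylate carrier Slc25a10 had 44 reads in all, and Slc25a21 had none.

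Of the 7 tested amino acid and glutathione carriers 2 rose, 3 fell and 2 did not pass. Slc25a15 (ENSMUSG00000031482), the ornithine carrier, was at 3.19, 3.78 and 2.97 CPM in sepsis against 9.44, 7.85, 11.1, 10.8 and 7.65 CPM in controls. It fell 2.80-fold without overlap, with -1.49 (SE 0.25) and an edgeR adjusted p of 2.90e-04. Slc25a38 (ENSMUSG00000032519), which brings glycine into the matrix for heme synthesis, had 13.03, 12.6 and 20.3 CPM in sepsis against 5.83, 5.65, 7.83, 5.79 and 7.97 CPM in controls. It rose 2.31-fold, again without overlap, with 1.21 (SE 0.23) and an edgeR adjusted p of 6.84e-04. Slc25a44, a carrier of branched-chain amino acids, rose 1.51-fold, at 39.5 ± 4.14 CPM in sepsis and 26.1 ± 3.63 CPM in controls (SD, n = 3 and 5). Of the 7 genes of branched-chain amino acid breakdown 1 rose, the dehydrogenase subunit gene Bckdha (1.40-fold), and 2 fell, the dehydrogenase kinase gene Bckdk (2.60-fold) and Dld (1.28-fold).

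Slc25a39, which imports glutathione, stood at 17.8, 26.7 and 20.5 CPM in sepsis against 39.7, 38.9, 41.9, 38.0 and 37.3 CPM in controls. It fell 1.80-fold, with -0.85 (SE 0.15) and an edgeR adjusted p of 4.98e-04, and with library totals alone it missed the threshold at -0.42 and 0.0526. Its paralogue Slc25a40 had 37 reads in all. The share of Slc25a39 among the reads of the pair was 96.2% ± 0.530 in sepsis and 95.9% ± 2.17 in controls, with an exact permutation p of 0.804. The glutamate carrier Slc25a22 and the basic amino acid carrier Slc25a29 had 0.64 (SE 0.35) and 0.06 (SE 0.38) and did not pass. Slc25a22 passed with library totals alone, at 1.04 and an edgeR adjusted p of 0.0199. Slc25a2, Slc25a18 and Slc25a48 had 6, 5 and 1 reads.

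The acylcarnitine carrier Slc25a20, which admits long-chain fatty acids for oxidation, had 38.0, 29.4 and 48.9 CPM in sepsis against 33.0, 34.2, 40.1, 26.0 and 24.2 CPM in controls. The groups overlapped, and the log2 fold change of 0.29 (SE 0.20) had an edgeR adjusted p of 0.229; with library totals alone it was 0.70 at 0.00574. In the rest of the carnitine shuttle 2 of 5 genes fell and 3 did not pass. Those that fell were Cpt1b, the outer membrane acyltransferase of muscle, with -0.41 (SE 0.15), and the carnitine uptake gene Slc22a5 with -1.25 (SE 0.42). For Cpt1b the edgeR adjusted p was 0.0327 and the groups overlapped, with septic library 1 at 108 CPM and control 1 at 102 CPM. Slc22a5 was tested only because controls, where it is high, passed the filter.

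Of the 9 cofactor and nucleotide carriers 4 fell, 1 rose and 4 did not pass. Slc25a26, the carrier of the methyl donor S-adenosylmethionine, stood at 11.2, 8.82 and 7.31 CPM in sepsis against 21.7, 20.7, 16.9, 19.9 and 28.4 CPM in controls. Its groups did not overlap and it fell 2.37-fold at an edgeR adjusted p of 3.47e-04; the gene Lrig1 lies within 500 bases of its 3′ end in GENCODE, on the other strand.

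Slc25a42, the coenzyme A carrier, had 5.05, 4.62 and 2.05 CPM in sepsis against 8.05, 9.42, 10.8, 7.23 and 6.37 CPM in controls. All septic values were lower, and the log2 fold change of -1.10 (SE 0.31) had an edgeR adjusted p of 0.00912. It too had entered through control libraries only, and with no expression filter the adjusted p was 0.00681. With library totals alone it was -0.68 and missed the threshold at 0.0824. Slc25a32, which is linked to mitochondrial folate and FAD, fell 1.48-fold at an edgeR adjusted p of 0.00801, a call lost with library totals alone at 0.462. Slc25a16 had -0.60 (SE 0.24) at 0.0556 and passed without septic library 2 at 0.0153. The peroxisomal cofactor carrier Slc25a17 had 0.67 (SE 0.29) at 0.0736, and passed without septic library 3 at 0.0246 and with library totals alone at 0.00715.

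The series title concerns nicotinamide mononucleotide, a precursor of NAD, and Slc25a51 (ENSMUSG00000045973) is the carrier that brings NAD into the matrix. It was at 68.4, 85.5 and 71.9 CPM in sepsis against 82.4, 94.8, 84.3, 93.7 and 90.5 CPM in controls. The groups overlapped at septic library 2, and the log2 fold change of -0.24 (SE 0.12) did not pass at an edgeR adjusted p of 0.105. Without septic library 2 it was -0.34 and passed at 0.0268, and with library totals alone it was 0.18 at 0.245. Of the 3 tested genes of mitochondrial NAD making and use, Nmnat3 and the deacylase gene Sirt3 fell 1.68-fold and 4.04-fold, and the NAD kinase gene Nadk2 had 0.46 (SE 0.21) without passing. Sirt3 passed the filter through control libraries only, and its fold rests on 8, 8 and 0 reads in septic libraries 1 to 3.

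The pyrimidine nucleotide carriers Slc25a33 and Slc25a36, which supply nucleotides to the mitochondrial genome and its transcripts, differed in their response. Slc25a33 (ENSMUSG00000028982) had 49.2, 27.5 and 31.5 CPM in sepsis against 11.9, 10.0, 6.63, 14.1 and 11.5 CPM in controls. It rose 3.32-fold, with 1.73 (SE 0.24) and an edgeR adjusted p of 5.52e-05. Slc25a36 had 19.9, 24.8 and 31.3 CPM in sepsis against 23.3, 42.1, 45.5, 35.8 and 21.3 CPM in controls, a log2 fold change of -0.40 (SE 0.26) that did not pass. Of the reads of the pair Slc25a33 held 71.2%, 52.6% and 50.2% in septic libraries and 33.9%, 19.3%, 12.7%, 28.3% and 35.0% in controls. The shares did not overlap. They differed by 32.2 percentage points, with an exact permutation p of 0.0179, adjusted 0.0251.

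Iron carriers showed a split of the same kind. Mitoferrins bring iron to the matrix for heme and iron-sulfur clusters: mitoferrin-1 (Slc25a37) is the form of red cell precursors and mitoferrin-2 (Slc25a28) is found in most tissues. Slc25a28 (ENSMUSG00000040414) was at 116, 61.6 and 176 CPM in septic libraries against 20.3, 26.7, 36.1, 25.0 and 26.8 CPM in controls. Every septic library lay above every control, although septic libraries 2 and 3 differed widely. It rose 4.36-fold, with 2.13 (SE 0.30) and an edgeR adjusted p of 3.07e-04.

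Slc25a37 (ENSMUSG00000034248) had 11.2, 17.2 and 21.0 CPM in sepsis against 16.7, 20.7, 17.5, 21.7 and 17.8 CPM in controls, and -0.19 (SE 0.20) did not pass. The erythroid marker sums given above varied most among controls, and their part in this gene was not tested. Slc25a28 made up 91.2%, 78.1% and 89.4% of mitoferrin reads in septic libraries and 54.9%, 56.3%, 67.4%, 53.5% and 60% in controls. The groups did not overlap and differed by 27.8 points, with an exact permutation p of 0.0179, adjusted 0.0251. Genes of heme and iron-sulfur synthesis fell in 5 of 8 tested cases and did not pass in 3, with Isca1, Cpox and Fech down 1.96-fold, 2.32-fold and 1.63-fold.

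Slc25a34 (ENSMUSG00000040740), a carrier whose substrate is not settled, had the largest increase by fold of the tested carriers. It stood at 36.4, 14.1 and 35.2 CPM in sepsis against 7.22, 2.20, 8.73, 3.25 and 3.82 CPM in controls, without overlap. The log2 fold change was 2.46 (SE 0.42), at an edgeR adjusted p of 6.86e-04. Its paralogue Slc25a35 had 8 reads in sepsis and 39 in controls and was not tested. It stood at 0.53, 0.42 and 0.91 CPM in sepsis against 1.94, 2.51, 4.22, 2.17 and 1.27 CPM in controls, without overlap. The pair had as few as 15 reads in a library, so its shares rest on few reads. Slc25a34 held 98.6%, 97.1% and 97.5% of the reads of the pair in sepsis and 78.8%, 46.7%, 67.4%, 60% and 75% in controls, with an exact permutation p of 0.0179, adjusted 0.0251. That call was lost without control 5, at an unadjusted exact p of 0.0571, although every septic share still lay above those of the other controls. With any septic library left out the unadjusted exact p was 0.0476. The same value held for the shares of Slc25a4, Slc25a12, Slc25a28 and Slc25a33. These refits were not adjusted over the paralogue shares, so whether the adjusted calls hold in them was not tested.

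Slc25a46, an outer membrane protein of the family that acts in mitochondrial shape and not as a known carrier, rose 1.53-fold, at 44.3 ± 3.06 CPM in sepsis and 28.9 ± 4.08 CPM in controls (SD, n = 3 and 5). The other genes with less settled substrates had 39 reads (Slc25a47), 33 (Slc25a45), 5 (Slc25a53), 1 (Slc25a54) and 0 (Slc25a43) in all.

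**Figure D3:**
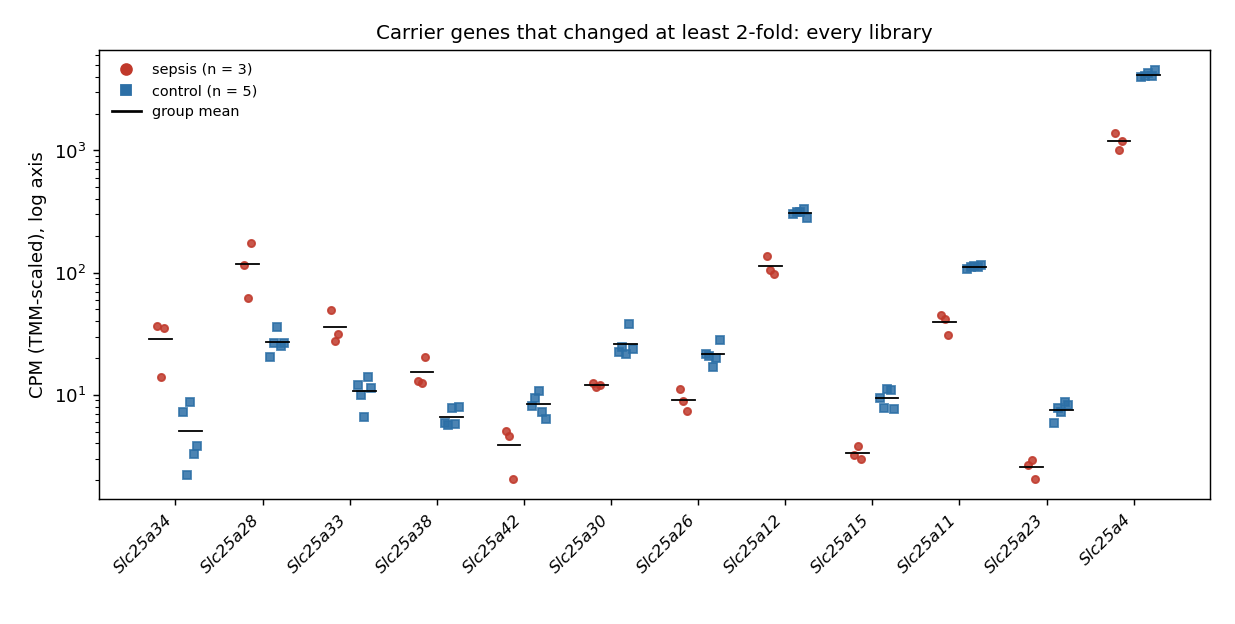
CPM on a log axis for 12 of the 13 carrier genes that passed the threshold with at least a 2-fold change, in every septic (circles) and control (squares) library, with group means as lines. The 4 genes on the left were higher in sepsis and the 8 on the right lower, and in none of the 12 do the groups overlap.

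Carriers related to the uncoupling proteins, which let protons or anions pass the inner membrane, numbered 2 among those tested, and 1 fell. Slc25a30 had 12.5, 11.6 and 12.1 CPM in sepsis against 22.5, 24.5, 21.7, 38.3 and 23.9 CPM in controls. It fell 2.16-fold, with -1.11 (SE 0.21) and an edgeR adjusted p of 6.57e-04. Slc25a27 had -0.30 (SE 0.24) and did not pass, and Slc25a14 had 58 reads in all. Family genes filed under other names showed a rise of Ucp2, with 10.2 ± 2.48 CPM in sepsis and 3.30 ± 1.85 CPM in controls (SD, n = 3 and 5) and a log2 fold change of 1.59 (SE 0.35). Ucp2 is abundant in immune cells, and the neutrophil and macrophage marker sums given above were also higher in sepsis than in controls. A link between them was not tested. Ucp3, the muscle form, had 0.92 (SE 0.62) with wide spread in both groups, Mtch1 had -0.25 (SE 0.14) and Mtch2 0.24 (SE 0.10), none of which passed, and Ucp1 had no read. The list of mitochondrial one-carbon and amino acid enzymes had 2 of 8 tested genes lower, Pycr1 (4.33-fold) and Aldh1l2 (2.54-fold), and 6 that did not pass. Both lower genes were tested only through controls, the group where they are high.

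**Figure D4:**
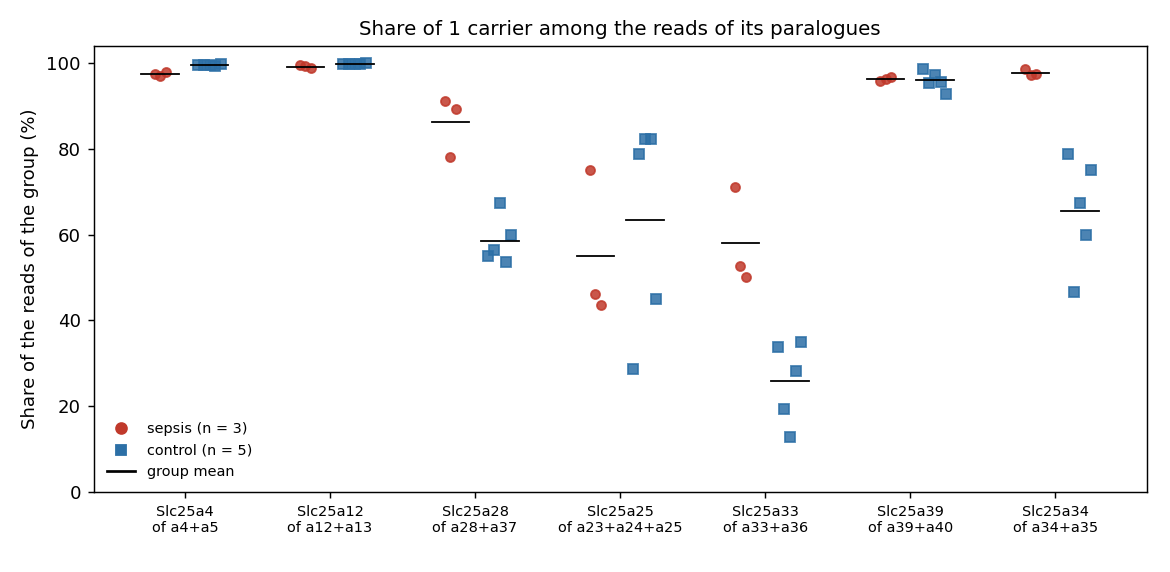
Share of 1 carrier (percent, y axis) among the reads of its paralogues in each septic (circles) and control (squares) library, with group means as lines. Slc25a28, Slc25a33 and Slc25a34 held more of their group's reads in every septic library, Slc25a4 and Slc25a12 slightly less, and the groups overlap for Slc25a25 and Slc25a39.

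In the group of ATP-Mg/phosphate carriers the share of Slc25a25 was 54.9% ± 17.5 in sepsis and 63.4% ± 25.0 in controls (SD, n = 3 and 5), with an exact permutation p of 0.714.

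Promoters were searched for short motifs in the 250 bases before the start site, from the RefSeq table of the GRCm38.p6 build, which held 36 of the 47 genes. Of these, 13 were called, 5 higher and 8 lower. On both strands, the words were AAGGTCA, the core read by oestrogen-related receptors, found in 4.7% of all genes of that table, its longer form TCAAGGTCA (0.422%), CGCATGCG of NRF1 (1.75%), the E-box CACGTG (6.86%), TGACGTCA of CREB (1.77%) and TTGCATCA of the amino acid response (0.918%). AAGGTCA was found in 1 of the 36 genes, CACGTG in 7, TGACGTCA in 2, and TCAAGGTCA, CGCATGCG and TTGCATCA in 0, and TCAAGGTCA contains AAGGTCA. Only 3 called carriers held any of these words, and their windows are shown with the word in capitals, on the strand of the gene, which is the minus strand in each case.
Slc25a34 (higher, chr4:141623922-141623978): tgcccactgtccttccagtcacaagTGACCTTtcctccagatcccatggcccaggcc
Slc25a33 (higher, chr4:149774268-149774300): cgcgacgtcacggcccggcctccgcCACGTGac
Slc25a15 (lower, chr8:22398324-22398379): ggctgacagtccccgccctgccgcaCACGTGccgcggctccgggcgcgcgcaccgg
In Slc25a34 the word lies 119 bases before the start site and reads TGACCTT, the other strand of AAGGTCA. In Slc25a33 and Slc25a15 the E-box lies 8 and 77 bases before it. None of the 8 matched genes that were lower held AAGGTCA in this window, and Slc25a25 and Slc25a36, which were not called, held TGACGTCA. These matches describe letters only.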

How the data were processed

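The authors deposited raw counts of reads per gene, 1 column per library, and these were the only values used. QuantSeq 3′ libraries were made from column-purified RNA, per the labels' protocols, and per the submitters' processing notes the build was GRCm39. The aligner, counter, strand setting and annotation release are not given in the sources used here, so reads of overlapping genes on opposite strands may not be separated. All 47 identifiers matched the given name table, with equal symbols.

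EdgeR 4.0.16 in R 4.3.3 tested sepsis (3 libraries) against control (5) over the whole table: expression filter (minimum count 10, minimum total 15), TMM scaling, robust quasi-likelihood F test, no covariate, Benjamini-Hochberg adjustment over 9810 genes, threshold 0.05. Shares of paralogue reads were compared by two-sided exact permutation tests. Alternatives were other scalings, no filter, DESeq2 1.42.0, limma 3.58.1, a replicate block and leaving out each library. The procedure was tested on simulated data. Protein sequences, planned as a description, were not used here. Of the genes counted, 1 carrier and 1 gene of a related list are not reported here by name. Carriers past the threshold with at least a 2-fold change and no overlap, the 4 with most reads and the paralogues are given per library. Named besides are up to 3 called genes with the smallest p of each related list and any gene of a list of 6 or fewer. The members and lists were chosen with earlier results of these data known.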

Additional observations from a re-analysis of the deposited data

Results flagged for a closer look

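Slc25a30 in control 4 stood at 38.3 CPM, while the other 4 controls lay between 21.7 and 24.5 CPM. The gap to its nearest neighbour was 0.832 of the range of the group, above the critical value of 0.71 for 5 libraries. Controls were checked in this way for the 31 tested carriers, and chance flags about 1 in 20 groups. Slc25a30 was called lower with control 4 left out as well.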

How the results depend on the processing

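Each of the 31 tested carriers was refitted in 17 other ways, and 14 of the 18 called carriers were called in the same direction in all of them. The exceptions were Slc25a5, Slc25a32, Slc25a39 and Slc25a42. Of 527 refitted values 491 kept direction and side of the threshold, 12 lost the call, 10 gained it and 14 changed sign. With library totals alone the carriers' median was 0.14 in place of -0.28, and uncalled Slc25a51, Slc25a36, Slc25a3, Slc25a37, Slc25a1 and Slc25a27 changed sign, to 0.18, 0.019, 0.15, 0.24, 0.14 and 0.12. This scaling does not correct for the composition of the libraries. Without 1 library at a time Slc25a37 ran from -0.39 to 0.015, Slc25a1 from -0.68 to 0.041 and Slc25a29 from -0.28 to 0.38. Slc25a29 was -0.0026 in limma-voom. The share of Slc25a39 differed by -0.090 as log2 odds, and by -0.43 to 1.01 points without 1 library at a time, in place of 0.33 points. For Slc25a34 the share differed by 27.4 to 35.4 points. The causes were not tested. With replicate number as a block over the 6 libraries numbered 1 to 3, 6 carriers were higher and 10 lower, with Slc25a29 at -0.26, and without the block on the same libraries, an alternative added after seeing the data, 6 and 10, with Slc25a29 at -0.17. Deviations of same-numbered libraries correlated at -0.086, -0.014 and -0.020, so the numbers gave no sign of pairing. Slc25a5 and Slc25a32 missed the threshold with the block, at adjusted p-values of 0.0616 and 0.131, and on the same libraries without it, at 0.0709 and 0.0729. The filter left 16 carriers untested, 3 of them with no read.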
